A study of Mus musculus with 4 samples.

Results

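The 44 collagen genes among the 32285 genes counted in these libraries were taken as a family, by the rule that the symbol reads Col, a number, a and a number. All 44 had a row in each of the 4 matrices, and 43 of them held at least 1 UMI (unique molecular identifier, the tag that marks 1 captured RNA molecule) among the kept cells of the control library. The assay was single-cell RNA sequencing in droplets of mouse heart, which counts tags from the 3′ ends of polyadenylated RNA, in 4 libraries with 1 library per group. The groups were a control, a sham, a sepsis group that underwent cecal ligation and puncture (a puncture of the gut wall that releases bacteria into the abdomen), and a group labelled as sepsis with low-level tragus stimulation, an electrical stimulation of the outer ear. The last group is called sepsis plus stimulation here, and the puncture operation is named in the labels of the sepsis library alone. Strain, age, the number of animals and the time of sampling were not given in the sources used here. With 1 library per group there was no replicate check and no test was made. All intervals are 95% intervals that cover counting error only.

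Collagens are secreted or membrane proteins built from 3 chains wound into a triple helix. Fibrillar collagens (types I, III and V) form the load-bearing fibres of the heart's interstitium, type IV forms the sheet of the basement membrane around vessels and muscle cells, and type VI forms beaded filaments between them. Other members coat fibrils (types XII, XIV and XVI), lie at the border of the basement membrane (types XV and XVIII, the multiplexins) or cross the cell membrane (types XIII, XVII, XXIII and XXV). In the heart, fibroblasts are known as the main source of fibrillar chains and endothelial cells as a source of type IV.

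The libraries held 54611436 to 59465046 UMIs over 8741 to 15964 barcodes, and 7720 to 13559 cells were kept in each. Cells were assigned to classes by 8 markers per class, none of them a collagen. The fibroblast gate held 3177, 1663, 1994 and 1341 cells in control, sham, sepsis and sepsis plus stimulation, an order kept for every series of 4 values here. In the same order the endothelial gate held 3512, 1812, 2232 and 552 cells, the mural gate (pericytes and vascular smooth muscle) 508, 173, 229 and 107, and the glial gate 77, 30, 41 and 8. The labels describe all cells of the heart, but the cardiomyocyte gate held 39, 23, 24 and 8 cells. Any 2 libraries shared 19 to 60 barcodes. The fibroblast gate of the sepsis plus stimulation library stood apart in that 15.2% of its cells sat at the edge of the gate, with the fewest markers or the smallest lead over another class that it accepts, against 3.67% to 6.26% in the other libraries.

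Several type IV genes lie in pairs that point away from each other (GRCm38, GENCODE vM21). Col4a1 (chr8:11198423-11312826, minus strand) and Col4a2 (chr8:11312805-11449287, plus strand) overlap at their starts by 22 bases. Col4a3 and Col4a4 start 72 bases apart on chromosome 1, and Col4a5 and Col4a6 start 1.31 kb apart on chromosome X. RefSeq start windows (GRCm38.p6, 250 bases before to 50 after a start) were at hand for 35 of the 44 genes. GGGCGG, the core of the GC box, was found on either strand in 22 of the 35 (62.9%), against 35.7% of 32851 windows of all genes. For each motif a collagen with several windows counted as matched if any of them matched, while the share of all genes is over single windows. The share with CCAAT was 37.1% against 37.4%, with TATAAA 14.3% against 13.6%, and with TTCNNNGAA, a STAT-type motif, 5.71% against 8.30%. A match describes the letters and shows no bound factor. Shown are the 250 bases before the start of Col3a1 (chr1:45311288-45311537, plus strand), the most abundant fibroblast collagen of the control and sham libraries, of Col8a1 (chr16:57754738-57754987, minus strand) and of Col15a1 (chr4:47207762-47208011, plus strand), which were among the members furthest below sham in sepsis. The last line is a stretch of 30 bases from the interval common to the Col4a1 and Col4a2 windows (chr8:11312800-11312829, plus strand), the pair that was higher. Each reads from the 5′ to the 3′ end of the stated strand, and capitals mark matches to any of the 4 motifs.
Col3a1: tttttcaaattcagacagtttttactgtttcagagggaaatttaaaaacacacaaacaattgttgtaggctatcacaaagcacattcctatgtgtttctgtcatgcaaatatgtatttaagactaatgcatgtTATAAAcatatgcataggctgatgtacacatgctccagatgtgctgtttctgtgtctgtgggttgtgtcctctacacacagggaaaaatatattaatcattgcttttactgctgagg
Col8a1: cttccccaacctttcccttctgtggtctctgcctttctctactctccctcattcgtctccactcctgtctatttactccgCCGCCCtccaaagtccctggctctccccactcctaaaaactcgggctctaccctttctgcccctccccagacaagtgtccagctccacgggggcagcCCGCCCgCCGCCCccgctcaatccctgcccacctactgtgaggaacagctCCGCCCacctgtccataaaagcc
Col15a1: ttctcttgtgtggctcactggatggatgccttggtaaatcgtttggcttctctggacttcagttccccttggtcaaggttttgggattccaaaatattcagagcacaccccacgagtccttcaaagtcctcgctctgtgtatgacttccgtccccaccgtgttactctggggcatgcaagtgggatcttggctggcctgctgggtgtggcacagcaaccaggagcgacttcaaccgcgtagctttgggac
Col4a1 and Col4a2: tcggcagtgcgcGGGCGGcgtctccaaggg
Col3a1 carries 1 match, to TATAAA, Col8a1 carries 4, all to GGGCGG, and the Col15a1 window carries none.

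In fibroblast-gated cells collagens made up 1.12%, 1.34%, 0.666% and 0.381% of all UMIs. Of 38 members with enough counts, 34 were lower in sepsis than in sham. Leaving aside Col2a1, whose sham UMIs came almost all from 1 cell, Col6a6, Col15a1, Col14a1 and Col8a1 were furthest down among those above 50 CPM (counts of a gene scaled to a fixed total of the gate's UMIs), and the type I, III and V chains and Col6a1, Col6a2 and Col6a3 were lower again in sepsis plus stimulation. The basement membrane pair Col4a1 and Col4a2 was higher in both. Summed collagen levels were 11151.5, 13420.2, 6659.5 and 3814 CPM. Per cell this was 50.7, 105, 59 and 28.4 collagen UMIs, with median depths of 4448, 7678, 8688 and 7616 UMIs per cell.

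**Figure D1:**
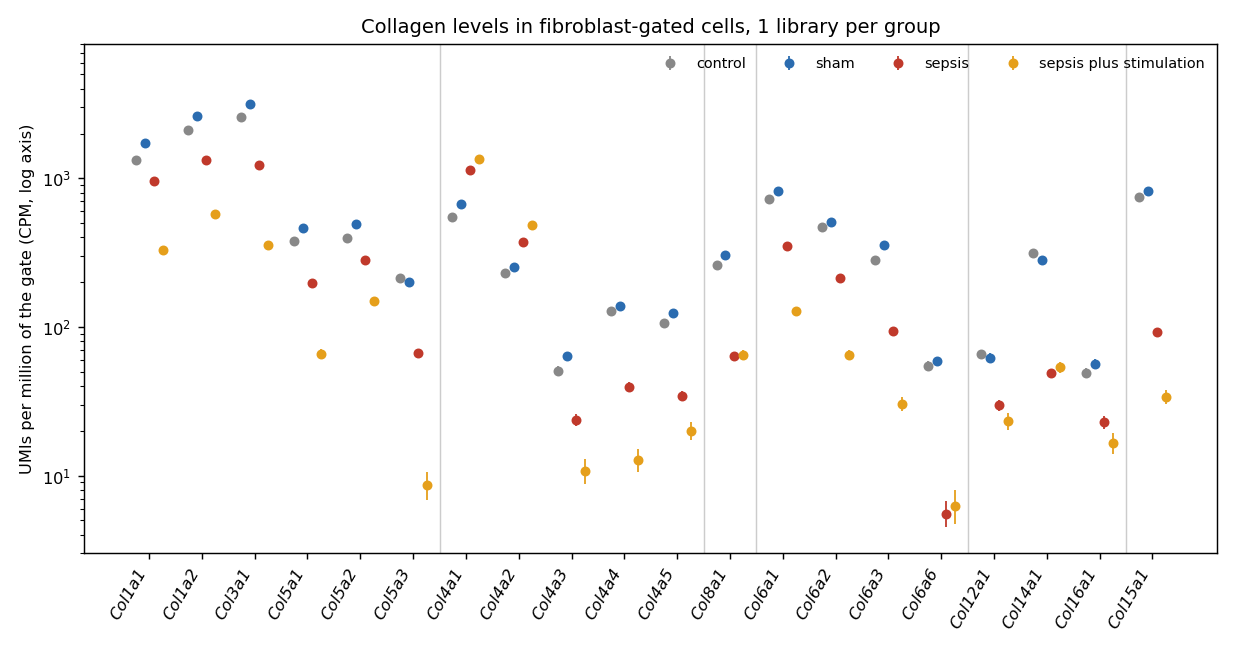
Level of each named collagen in fibroblast-gated cells (CPM, log axis) in the 4 libraries, with points as single libraries and bars as 95% Poisson intervals. Vertical lines part the structural groups, and Col2a1 is left out because nearly all of its UMIs came from 1 cell. Col4a1 and Col4a2 are higher in both sepsis libraries than in control and sham, and the other members are lower.

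A member was counted as measured in a comparison when it held at least 20 UMIs over its 2 libraries, and as higher or lower when its level differed by 2-fold or more. Sepsis over sham had 38 measured members in the fibroblast gate, of which 26 were lower and 1 was higher. Among all 13472 genes measured there, 7.40% were lower and 3.76% higher by the same rule. The median log2 ratio was -1.33 over the collagens and -0.09 over all genes. By structural group, 6 of 10 measured fibrillar members were lower, 4 of 6 type IV members, 4 of 5 type VI members, 7 of 8 fibril-associated members, both type VIII chains and 1 of 2 multiplexins. The fibrillar count includes Col2a1 and Col11a1 and the fibril-associated count Col9a1 and Col9a3, whose sham values are treated next. Sepsis plus stimulation over sepsis had 34 measured members, with 17 lower and none higher (17.1% and 4.32% of all genes). There the median was -1.03 over the collagens and -0.22 over all genes. Against sham, sepsis plus stimulation had 35, with 30 lower and 1 higher (25.2% and 6.80% of all genes). With TMM scaling in place of the gate's total, the median of all genes moved to 0.03, -0.06 and -0.02 in these 3 comparisons, and 25, 16 and 31 collagens were past 2-fold. These comparisons share the sham or the sepsis library, so they are not independent of each other. Sham over control, the comparison without sepsis, had 37 measured members, with none lower and 5 higher (1.29% and 1.03% of all genes, or 2.32% in either direction).

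Those 5 were Col2a1, Col11a1, Col9a1, Col9a3 and Col6a5, and the first 4 are chains known from cartilage. Col2a1 was counted 3, 1440, 5 and 1 times, and a single cell of the sham library held 1434 of the 1440 UMIs (99.6%). The same cell held 41.1% of the Col11a1, 44.3% of the Col9a1 and 70.3% of the Col9a3 UMIs of that gate. It also held 69.2% of the UMIs of Acan, which encodes the cartilage proteoglycan aggrecan, and 70.2% of those of Cnmd (chondromodulin). Without fibroblast-gated cells holding a Col2a1 UMI, the count of members past 2-fold in sham over control was 1 and that of members past 2-fold in sepsis over sham was 24. The ratios of these 4 chains against sham rest in large part on 1 cell and are not described further. Col6a5, at 5 and 25 UMIs in control and sham, had 28.0% of its sham UMIs in 1 cell.

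The fibrillar chains were the largest group. Col3a1, the type III chain, stood at 2572, 3145, 1230 and 354 CPM, which is 2.56-fold lower in sepsis than in sham (log2 -1.35, interval -1.38 to -1.33) and a further 3.47-fold lower in sepsis plus stimulation. Col1a1 and Col1a2, which together form type I collagen, were at 1323, 1739, 957 and 329 CPM and at 2109, 2605, 1336 and 572 CPM. Their sepsis over sham ratios were 1.82-fold lower (log2 -0.86, interval -0.89 to -0.83) and 1.95-fold lower (log2 -0.96, interval -0.99 to -0.94), short of 2-fold. Both were past it in sepsis plus stimulation over sepsis, at 2.91-fold and 2.34-fold lower. In every one of these chains sham was the highest library and sepsis plus stimulation the lowest, with intervals that did not overlap.

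Type V collagen sets the diameter of type I fibrils. Col5a1 was at 377, 463, 197 and 65.7 CPM, Col5a2 at 395, 491, 281 and 150 CPM, and Col5a3 at 213, 202, 66.5 and 8.60 CPM. Col5a3 had the lowest ratio of all measured members in sepsis plus stimulation over sepsis, 7.68-fold (log2 -2.94, interval -3.28 to -2.63). The chains of a type differed in how far apart the libraries were. The ratio of Col5a1 to Col5a2 UMIs went from 0.94 (0.91 to 0.98) in sham to 0.70 (0.67 to 0.73) in sepsis and 0.44 (0.40 to 0.48) in sepsis plus stimulation. The ratio of Col1a1 to Col3a1 was 0.55 (0.54 to 0.56), 0.78 (0.76 to 0.79) and 0.93 (0.89 to 0.98) in the same libraries, and that of Col1a1 to Col1a2 was 0.67, 0.72 and 0.58.

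Type VI filaments are built from Col6a1, Col6a2 and a longer chain. Col6a1 was at 730, 818, 351 and 128 CPM, Col6a2 at 472, 506, 213 and 64.9 CPM, and Col6a3 at 282, 356, 94.5 and 30.4 CPM. Col6a3, the chain that carries the long globular tail of the filament, was further below sham than its partners. It was 3.76-fold lower in sepsis (log2 -1.91, interval -1.99 to -1.83), against 2.33-fold for Col6a1. The ratio of Col6a3 to Col6a1 UMIs was 0.43 (0.42 to 0.45) in sham and 0.27 (0.25 to 0.28) in sepsis. Col6a6, an alternative to Col6a3, was at 55.0, 58.9, 5.55 and 6.20 CPM, 10.6-fold lower in sepsis than in sham, with 98 and 62 UMIs left in the sepsis libraries.

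A second pattern was a single step between sham and sepsis with little difference after it. Col8a1, a short-chain network collagen of vessels and the subendothelium, was at 260, 307, 63.9 and 65.1 CPM. It was 4.8-fold lower in sepsis than in sham (log2 -2.26, interval -2.36 to -2.17) and at a log2 ratio of 0.03 (-0.11 to 0.17) in sepsis plus stimulation over sepsis. Col14a1, which coats fibrils and regulates their assembly, was at 314, 281, 48.7 and 53.6 CPM, with log2 ratios of -2.52 (-2.63 to -2.42) and 0.14 (-0.02 to 0.30) in the same comparisons. Col6a6 had -3.40 and 0.17. Col12a1 and Col16a1, the other fibril-associated members above 50 CPM, were at 66.1, 62.1, 29.7 and 23.2 CPM and at 49.1, 56.3, 22.8 and 16.5 CPM.

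Col15a1, a multiplexin of the basement membrane zone, had the lowest ratio of sepsis plus stimulation over sham among the measured members other than Col2a1. It was at 744, 824, 91.9 and 33.7 CPM, 8.96-fold lower in sepsis than in sham (log2 -3.16, interval -3.24 to -3.09) and 24.4-fold lower in sepsis plus stimulation than in sham. Its relative Col18a1, the source of endostatin, stayed below 50 CPM in this gate, with 386, 318, 221 and 54 UMIs and a sepsis over sham log2 ratio of -0.96 (-1.22 to -0.71).

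The type IV chains split in opposite directions. Col4a1 was at 548, 669, 1143 and 1344 CPM and Col4a2 at 229, 252, 372 and 487 CPM. Sepsis was 1.71-fold and 1.48-fold above sham for the 2 chains (log2 0.77, interval 0.74 to 0.81, and 0.56, interval 0.50 to 0.62). Sepsis plus stimulation was a further 1.18-fold and 1.31-fold above sepsis, which brought Col4a1 to 2.01-fold above sham. That value sits at the threshold: the log2 ratio was 0.85 with cells thinned to 1000 UMIs, 0.92 without the marked subsets and 1.29 with TMM scaling, against 1.01. Neither passed 2-fold in sepsis over sham, and Col4a1 was the 1 member that passed it upward in sepsis plus stimulation over sham. Per cell, Col4a1 went from 5.24 UMIs in sham to 10.12 and 10.02 in the sepsis libraries, at the depths given above. The chains of the specialised type IV network, Col4a3, Col4a4 and Col4a5, were lower. Col4a3 was at 50.5, 63.5, 23.7 and 10.7 CPM, Col4a4 at 127, 138, 39.6 and 12.7 CPM, and Col4a5 at 107, 124, 34.3 and 20.1 CPM. Their sepsis over sham ratios were 2.68-fold, 3.48-fold and 3.62-fold lower. Col4a1 and Col4a2 together made up 6.86% of the collagen UMIs of the gate in sham, 22.8% in sepsis and 48.0% in sepsis plus stimulation.

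**Figure D2:**
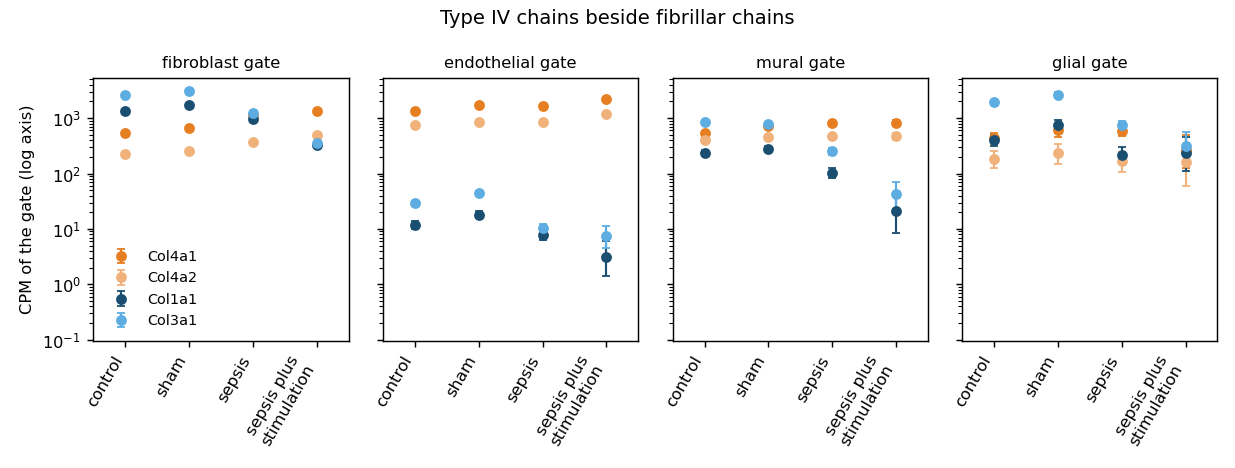
Levels of Col4a1, Col4a2, Col1a1 and Col3a1 (CPM, log axis) by library in the 4 gates, with 95% Poisson intervals. In the fibroblast gate the type IV pair and the fibrillar pair cross between sham and sepsis plus stimulation, while in the endothelial gate the type IV pair is the higher one in every library.

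The transmembrane members were rare. Col17a1, a hemidesmosome collagen of epithelia, was the 1 member higher by 2-fold in sepsis over sham, with 8, 5, 23 and 3 UMIs (log2 1.66), and the 23 UMIs lay in 21 cells. Col23a1 had 17, 18, 42 and 19 UMIs (log2 0.76 in sepsis over sham) and Col13a1 46, 28, 18 and 13. Col10a1, Col6a4, Col19a1 and Col24a1 had 1, 3, 3 and 8 UMIs over the 4 gates and the 4 libraries together.

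Col3a1, Col15a1 and Col4a1 kept their directions in fibroblasts of different marker sets. Cells with a Pi16 or Dpp4 UMI, markers of adventitial fibroblasts, numbered 2225, 1277, 1534 and 714, cells with Comp, Fmod or Wif1 544, 277, 288 and 130, and cells with neither 712, 270, 333 and 547. A cell can be in both of the marked sets. Col3a1 had sepsis over sham log2 ratios of -1.35, -1.37 and -1.34 in these sets, Col15a1 of -3.22, -2.80 and -3.04, and Col4a1 of 0.84, 0.88 and 0.37. The sets differed in level within the sham library. Col1a1 was at 2529 CPM in the Comp, Fmod or Wif1 set and at 1654 CPM in the Pi16 or Dpp4 set, while Col4a1 was at 301 and 692 CPM and Col15a1 at 493 and 886 CPM. The share of cells with neither set of markers was highest in sepsis plus stimulation, and the part of that shift in the comparisons of the whole gate was not tested. Summed fibroblast markers were also lower in the sepsis libraries (39034, 42825, 32283 and 30371 CPM), and the summed immune markers in this gate were 80.2, 75.4, 62.8 and 135 CPM.

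For Col3a1, Col15a1 and Col4a1, shares of cells with a UMI gave the same order of libraries once each cell was thinned to 1000 UMIs, which left out 173, 38, 26 and 119 shallower fibroblast-gated cells. Col3a1 was then found in 82.0%, 87.9%, 50.8% and 18.4% of fibroblast-gated cells (94.8%, 98.2%, 88.2% and 52.7% before thinning). Col15a1 was found in 46.0%, 51.3%, 8.54% and 3.11%, and Col4a1 in 37.2%, 46.8%, 61.7% and 65.9%. In immune-gated cells, which are not known to make fibrillar collagen, Col3a1 was found in 1.64%, 1.79%, 1.15% and 0.53% after thinning, and this is taken as the background. Fibroblast shares lay above it in every library. Median depths of the immune gate were 3545, 5737, 6738 and 6793 UMIs.

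**Figure D3:**
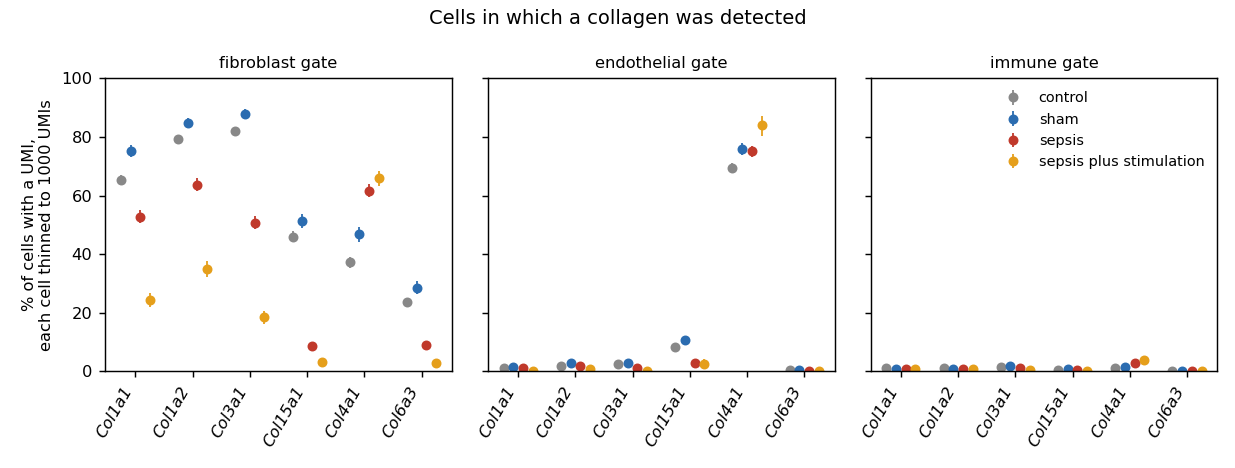
Percent of cells with at least 1 UMI of a collagen after each cell was thinned to 1000 UMIs, by gate and library, with exact (Clopper-Pearson) 95% intervals. In fibroblast-gated cells all but Col4a1 are detected in fewer cells of the sepsis libraries, and in immune-gated cells all 6 genes are detected in at most 3.85% of cells.

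Endothelial-gated cells held a different set. Summed collagen was at 2444, 2989, 2631 and 3538 CPM, so it was not lower in sepsis plus stimulation. Col4a1 and Col4a2 made up 86.2%, 86.7%, 93.5% and 96.5% of it. Col4a1 was at 1340, 1724, 1624 and 2239 CPM and Col4a2 at 766, 868, 838 and 1176 CPM. Sepsis lay within 1.06-fold of sham for both, less than the move that TMM scaling made in the median of all genes there (-0.15 to 0.00), so no direction is read, and sepsis plus stimulation was 1.38-fold and 1.40-fold above sepsis (log2 0.46, interval 0.42 to 0.50, and 0.49, interval 0.43 to 0.55). The multiplexins were lower, as in fibroblasts. Col15a1 was at 104, 119, 42.5 and 27.2 CPM (2.81-fold lower in sepsis than in sham, log2 -1.49, interval -1.64 to -1.34) and Col18a1 at 53.1, 56.5, 16.2 and 12.6 CPM (3.48-fold lower, log2 -1.80, interval -2.04 to -1.57).

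Sepsis over sham had 25 measured members in the endothelial gate, with 12 lower and none higher, where 7.35% and 4.33% of all genes were. The median log2 ratio was -0.98 over the collagens and -0.15 over all genes. Sepsis plus stimulation over sepsis had 21, with 7 lower and 3 higher (19.6% and 8.72% of all genes). Set against sham, sepsis plus stimulation had 23, with 16 lower and 2, Col12a1 and Col13a1, higher (24.4% and 7.27% of all genes). Sham over control had 26, with none lower and 1, Col27a1 on 10 and 24 UMIs, higher (0.788% and 1.31% of all genes, or 2.10% in either direction). Most of these members were at a few CPM. Col1a1 was at 11.9, 18.2, 7.88 and 3.14 CPM, and after thinning it was found in 1.35% of endothelial-gated and 0.83% of immune-gated sham cells, so its counts in this gate are not read as expression. One cell held 33.0% of its sham UMIs. Some other lower members also lay near or below the immune gate. Their log2 ratios of endothelial over immune level in sham and sepsis were 1.03 and 0.05 for Col3a1, 1.23 and 0.85 for Col1a2 and -3.10 and -3.34 for Col14a1. Those of Col15a1 were 4.18 and 5.08. With the immune level subtracted, 10 of the 12 were still measured and all 10 stayed past 2-fold. The part of carried-over RNA in the 12 was not tested. The 3 higher members were Col12a1, Col13a1 and Col27a1, named after their values were seen. Col13a1, a transmembrane collagen, was at 2.46, 2.95, 4.55 and 17.4 CPM (27, 29, 60 and 50 UMIs), 3.84-fold higher in sepsis plus stimulation than in sepsis (log2 1.94, interval 1.37 to 2.51), and the 50 UMIs lay in 25 cells. Col12a1 was at 1.64, 1.63, 0.682 and 9.07 CPM, and its 26 UMIs in sepsis plus stimulation lay in 12 cells. Summed fibroblast markers in the endothelial gate were 309, 290, 318 and 579 CPM, highest in the same library, and their part in these values was not tested.

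Cells with 2 or more endocardial markers (Npr3, Cytl1 and Plvap), which line the heart's chambers, were few, at 92, 58, 37 and 6. In them Col4a1 was at 355, 328, 890 and 1530 CPM, with 113, 159, 231 and 65 UMIs, and Col4a2 at 144, 140, 412 and 565 CPM. In sham these 58 cells held 484662 UMIs in all, at a median of 3053.5 per cell. The 27 sham cells with 2 or more lymphatic markers (Prox1, Mmrn1 and Ccl21a) held 448997 UMIs, and the 83 cells in either set 711479. The 2 sets thus shared very few sham cells, and these deep cells held a large part of the sham UMIs of the endocardial set. Their part in the sham levels, and so in the ratios against sham, was not tested. The sepsis over sham log2 ratio of Col4a1 was 1.44 in the endocardial-marked cells. It was -0.15 in endothelial-gated cells with fewer than 2 endocardial and fewer than 2 lymphatic markers. The difference was not tested, and with 1 library per group it has no replicate check.

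**Figure D4:**
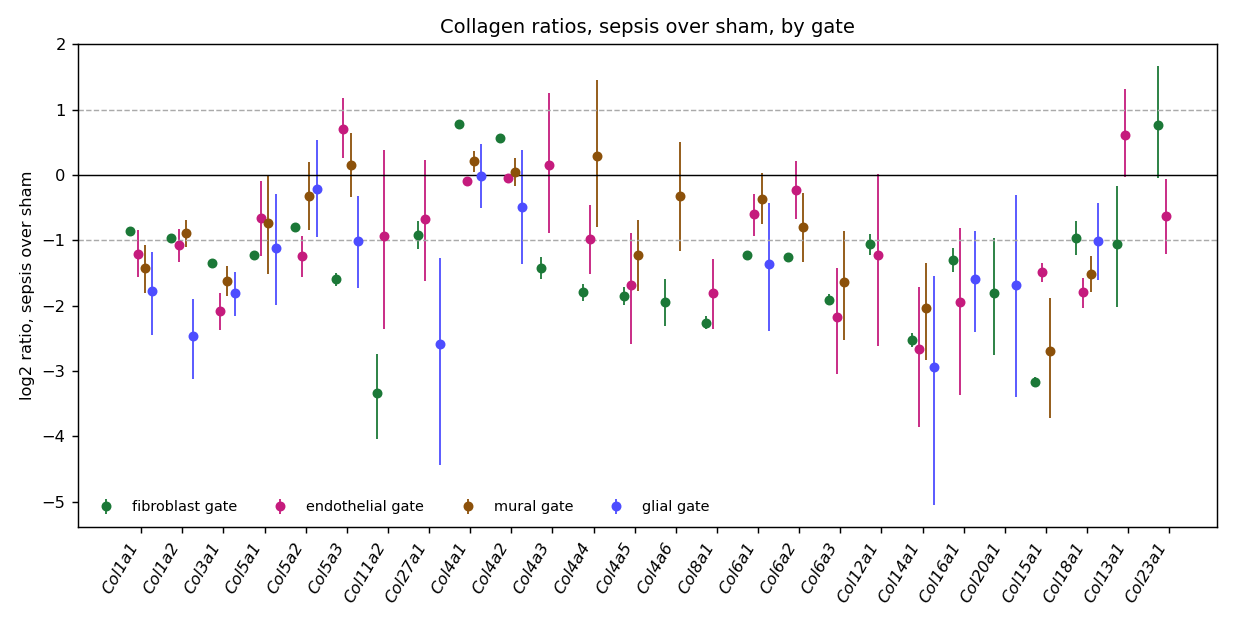
Log2 ratio of sepsis over sham for the members measured in at least 2 gates, with exact conditional 95% intervals. Dashed lines mark 2-fold, and Col4a1 and Col4a2 lie above 0 in the fibroblast gate and near 0 in the endothelial gate.

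In mural-gated cells fibrillar chains made up 45.6% and 44.5% of the collagen UMIs in control and sham, and type IV chains 28.9% and 30.9%. Summed collagen was at 4027, 4389, 2765 and 1856 CPM. Sepsis over sham had 17 measured members, with 7 lower and none higher (3.54% and 4.62% of all genes), and a median log2 ratio of -0.80 against -0.02 over all genes. Sepsis plus stimulation over sepsis had 15, with 10 lower and none higher (8.68% and 7.29% of all genes). In either direction these shares of all genes were 8.16% and 16%. Summed mural markers in this gate were at 36335, 34466, 25160 and 21320 CPM, fibroblast markers at 615, 684, 778 and 1052 CPM and immune markers at 100.02, 102, 135 and 273 CPM, and 29.1%, 24.9%, 26.6% and 35.5% of its cells sat at the edge of the gate. Their part in these ratios was not tested. Set against sham, sepsis plus stimulation had 17, with 14 lower and 1, Col4a4 on 13 and 11 UMIs, higher (12.3% and 11.3% of all genes, or 23.5% in either direction). None of 20 measured members was past 2-fold in sham over control, where 2.88% of all genes were higher and 2.33% lower (5.21% in either direction). Col3a1 was at 845, 777, 252 and 42.5 CPM, Col1a1 at 237, 276, 102 and 21.2 CPM and Col1a2 at 547, 663, 357 and 136 CPM. In sepsis the cell with the most UMIs of each gene held 25.2% of the Col1a2 and 20.1% of the Col3a1 UMIs. Col4a1 was at 549, 723, 833 and 825 CPM and Col4a2 at 405, 456, 471 and 467 CPM. In the gate as a whole the type IV pair thus differed little between sham and the sepsis libraries. Its share of mural collagen UMIs went from 26.9% in sham to 47.2% and 69.6%. Col5a3, lower in fibroblasts, was at 58.2, 83.8, 93.2 and 33.4 CPM. Of the members above 50 CPM, Col5a1, Col5a2, Col6a1, Col6a2 and Col6a3 had sepsis over sham log2 ratios of -0.74, -0.32, -0.37, -0.80 and -1.64. Col4a5, Col14a1 and Col15a1 had -1.22, -2.03 and -2.70. Col4a6, a smooth muscle chain, was at 68.2, 36.1, 28.8 and 3.03 CPM, the last from 1 UMI.

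Col18a1 was the more abundant multiplexin of this gate, at 446, 510, 178 and 136 CPM (2.86-fold lower in sepsis than in sham, log2 -1.51, interval -1.79 to -1.24). The mural gate held 25.2%, 17.3%, 16.5% and 16.6% of the Col18a1 UMIs of the libraries. Cells in no gate held 38.7%, 37.4%, 30.9% and 31.0%, more than any gate. Mural cells with at least 2 of the smooth muscle markers Myh11, Acta2 and Tagln (355, 98, 124 and 47 cells) had Col18a1 at 515, 636, 240 and 216 CPM, and the other mural cells had it at 8.63, 6.47, 4.38 and 0 CPM, on 2, 1, 1 and 0 UMIs. Col4a1 showed the reverse order, at 409, 467, 521 and 524 CPM in the first set and at 1440.5, 1754, 1709 and 1340 CPM in the second. Both orders were the same in all 4 libraries. The mix of the 2 sets was not. The second set held 231864 of 1699730 mural UMIs in control and 154503 of 775806 in sham. It held 228153 of 868725 in sepsis and 121657 of 329732 in sepsis plus stimulation. The part of this shift in the ratios of the whole mural gate was not tested.

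**Figure D5:**
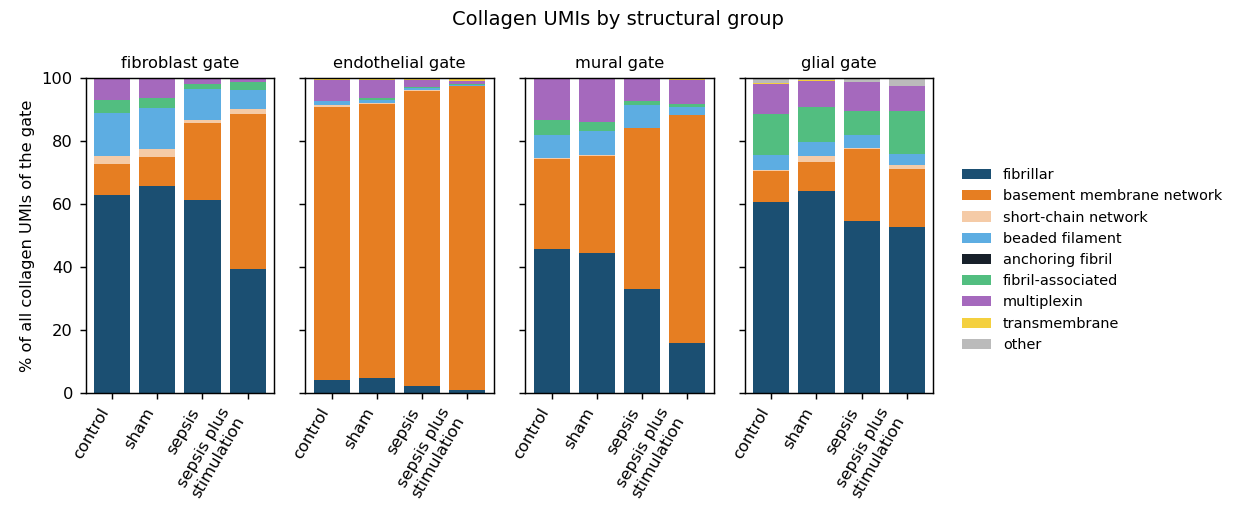
Collagen UMIs of each gate by structural group, as percent of all collagen UMIs of that gate and library. The basement membrane group (type IV) takes a larger share in the sepsis libraries than in control and sham in every gate, and the fibrillar group a smaller one. The glial bar of sepsis plus stimulation rests on 87 collagen UMIs.

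Glial-gated cells, which carry markers of the Schwann cells of cardiac nerves, had a summed collagen level below the fibroblast gate and above the endothelial and mural gates in control, sham and sepsis. It was at 6310.3, 8992, 3314 and 2317 CPM. Only 8 cells stood for sepsis plus stimulation, so that library carries wide counting error. Sepsis over sham had 14 measured members, with 11 lower and none higher (12.3% and 8.33% of all genes), and a median log2 ratio of -1.48 against -0.12 over all genes. With TMM scaling 8 members were lower, and with a margin of 3 markers between classes 6 were. Cells at the edge of the glial gate were 26.0%, 10%, 41.5% and 37.5% of its cells, and its summed glial markers were at 7694, 6716, 3800 and 2557 CPM. The part of either in these ratios was not tested. In sepsis plus stimulation over sepsis there were 10 measured members, with 3 lower and none higher (10.9% and 9.57% of all genes). Against sham the same library had 14, with 11 lower and none higher (20.1% and 11.0% of all genes, or 31.1% in either direction). Sham over control had 19, with none lower and 3, Col8a1, Col5a1 and Col1a2, higher (3.17% and 3.42% of all genes, or 6.59% in either direction). In the sham library of 30 glial-gated cells the cell with the most UMIs of each gene held 32.2% of the Col1a2, 33.8% of the Col1a1, 26.5% of the Col5a1, 40.4% of the Col3a1 and 55.2% of the Col6a1 UMIs, so ratios against sham for these members rest in part on few cells. Col3a1 was at 1924, 2623, 743 and 320 CPM. Col1a1 was at 399, 749, 215 and 240 CPM, Col1a2 at 493, 1133, 201 and 240 CPM, Col5a1 at 135, 318, 146 and 186 CPM, Col5a2 at 211, 290, 250 and 53.3 CPM and Col5a3 at 498, 421, 208 and 186 CPM. Col16a1 and Col18a1 were at 352, 468, 153 and 79.9 CPM and at 498, 590, 292 and 186 CPM. Col4a1 was at 434, 599, 590 and 266 CPM and Col4a2 at 182, 234, 167 and 160 CPM.

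Col5a3, Col16a1 and Col18a1, at the levels just given, were higher in this gate than in the other 3 in each library. Their UMIs were few in the 8 cells of sepsis plus stimulation. For Col18a1 this holds for whole gates. The mural cells with smooth muscle markers described above had a higher level than the glial gate in every library but sepsis. Col20a1 and Col28a1 were also highest in the glial gate in each library, at 93.8, 140.5, 41.7 and 53.3 CPM and at 88.0, 56.2, 34.7 and 53.3 CPM, on 2 to 16 UMIs a library. Col27a1 was highest here in control, sham and sepsis, at 152, 225 and 34.7 CPM on 26, 24 and 5 UMIs, and had no UMI in the 8 cells of sepsis plus stimulation. Col6a1, Col6a2, Col6a3, Col8a1, Col12a1, Col14a1 and Col15a1 also passed 50 CPM in at least 1 library, on at most 32 UMIs each. Summed fibroblast markers in the glial gate were 1806, 2276, 2466 and 2450 CPM, against 39034, 42825, 32283 and 30371 CPM in the fibroblast gate. Their part in the collagen levels of the glial gate was not tested.

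Where the UMIs of a library came from also differed. Fibroblast-gated cells held 91.1% of the Col3a1 UMIs of the sham library and 94.1% of those of sepsis. For Col4a1 they held 30.7%, 30.4%, 44.7% and 59.2%, and endothelial-gated cells 57.1%, 59.3%, 47.4% and 28.3%. These shares also depend on how many cells of each class a library holds. Col14a1 was the 1 member above 40 CPM in the immune gate of control and sham, at 42.8, 43.2, 8.03 and 3.49 CPM. After thinning it was found in 4.24% of immune-gated and 0.47% of endothelial-gated sham cells, so it lay above the level that endothelial cells show.

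The genes that make, trim, degrade and sense collagen were taken from 4 lists and read in fibroblast-gated cells, sepsis over sham. Of 25 genes of procollagen hydroxylation, folding and export, all were measured, 2 were lower and 1 was higher, with a median log2 ratio of -0.27. Serpinh1, the collagen chaperone HSP47, was at 491 CPM in sepsis against 918 in sham (log2 -0.90, interval -0.94 to -0.86), and at -1.78 in sepsis plus stimulation over sepsis. P4ha1, a subunit of prolyl hydroxylase, was at -0.46. The extremes were Tmem38b, an ion channel of the endoplasmic reticulum, at 1.17, P4hb, the other hydroxylase subunit, at 0.51, and P3h2 and Colgalt2, which modify procollagen chains, at -1.17 and -1.27.

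Of 18 measured genes of procollagen trimming and crosslinking, 6 were lower and 1 was higher, with a median of -0.65. The higher one was Lox, the lysyl oxidase that crosslinks fibrils, at 237 CPM in sepsis against 54.9 in sham (log2 2.11, interval 2.00 to 2.23), and it was at 384 CPM in sepsis plus stimulation. Tgm2, a transglutaminase, was next at 0.40. Bmp1, the procollagen C-proteinase, was at -0.15. Fmod, a fibril-binding proteoglycan that also marks 1 of the fibroblast sets above, was lowest at -2.66, and Tll2, a relative of Bmp1, followed at -1.33 on 10 and 19 UMIs. Of 14 measured genes of collagen degradation and uptake, 4 were lower and 3 higher, with a median of -0.23. The higher ones included Timp1, an inhibitor of matrix metalloproteinases named after its values were seen, at 699.5 CPM against 153 in sham (log2 2.19). Timp4, a related inhibitor, was at 2.64 and Mmp8, a neutrophil collagenase, at 3.26 on 32 and 2 UMIs. Mmp2, a gelatinase, was at -0.09, and the lowest were Mrc1, a macrophage receptor, and Fap, a fibroblast protease, at -2.16 and -2.05. Of 11 measured collagen receptors, 4 were lower and 1 higher, with a median of -0.28. The extremes were Adgrg1 at 1.82, Cd44 at 0.77, Lair1, an immune receptor, at -2.10 on 6 and 20 UMIs and Itga11, the integrin chain that binds type I collagen on fibroblasts, at -3.05. Of all genes measured in this comparison 11.2% were past 2-fold in either direction.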

How the data were processed

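Single-cell RNA-seq of mouse heart was analysed from the authors' deposited matrices of UMI counts, not normalized, and per the file headers the software was Cell Ranger 5.0.0. STAR and mm10 are named per the submitters' processing notes. Counts are 3′ tags, so no length scaling was applied. Barcodes with at least 500 UMIs, 200 genes and at most 20% mitochondrial UMIs were kept, and 0.8% of barcodes per 1000 with the highest Scrublet scores (scanpy 1.11.5) were removed as doublets. A cell entered a gate with at least 3 of 8 markers and 2 more than for any other class. Counts were summed per gate and library and scaled to CPM. Levels have exact Poisson intervals and log2 ratios (prior count 0.5) exact conditional binomial intervals. Ratios needed 20 UMIs over both libraries. No test was possible with 1 library per group. Members at 50 CPM or more in a library of a gate are named there, with the 2 highest and 2 lowest genes of each list and Serpinh1, Lox, P4ha1, Bmp1 and Mmp2. Members and lists were chosen with earlier results of these data known. Alternatives varied the gates, doublet and mitochondrial filters, thinning to 1000 UMIs, count minimum, pseudocount, edgeR 4.0.16 TMM scaling and marked subsets.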

Additional observations from a re-analysis of the deposited data

Results flagged for a closer look

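Col4a1 stood out because its ratio of sepsis plus stimulation over sham had opposite signs in 2 gates, at a log2 ratio of 1.01 in fibroblast-gated cells and -1.11 in glial-gated cells, the latter on 10 UMIs from 8 cells. Col12a1 did so as well, at 2.46 in endothelial-gated cells, on 26 UMIs from 12 cells, and at -1.42 in fibroblast-gated cells. Neither difference between gates was tested, since each group is 1 library.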

How the results depend on the processing

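The counts of collagens past 2-fold kept within 1.5 times their value in 80 of 102 counts from alternatives. In the fibroblast gate sepsis over sham ranged from 19 to 31 against 27. Sham over control there, 5, was 2 with cells thinned to 1000 UMIs, 1 without the marked subsets, 1 with 5 CPM added, 8 with no minimum of counts and 1 without cells holding a Col2a1 UMI, an alternative chosen after seeing the data. Sepsis plus stimulation over sepsis there, 17, was 10 with 5 CPM added. In the endothelial gate sepsis over sham, 12, was 6 thinned, 25 with no minimum and 3 with 5 CPM added, and sepsis plus stimulation over sepsis, 10, was 4 thinned and 5 with 5 CPM added. In the mural gate sepsis over sham, 7, was 4 thinned and 16 with no minimum. Sepsis plus stimulation over sepsis there, 10, was 6 with a margin of 3 markers, 4 thinned, 5 without the marked subsets, 6 with at least 50 counts and 16 with no minimum. In the glial gate sepsis over sham, 11, was 6 with a margin of 3 markers, 6 thinned, 7 with at least 50 counts and 20 with no minimum. Thinning and a higher minimum leave fewer counts per member, and the other causes were not tested. Of 1387 calls of single members, 1301 stayed past 2-fold, 86 did not and 4 changed sign, all of Col11a1 or Col11a2. Settings that changed only the minimum of counts used the same ratios, so no call could be lost there. Members no longer measured in a setting were left out of these totals. For fibroblast-gated cells thinned to 1000 UMIs, 18 of the 27 members called in sepsis over sham were compared. No paired analysis was possible because each group is 1 library.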
